A study of Homo sapiens with 9 samples.

Results

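The 9 genes described here encode transcription factors of the adrenal cortex: NR5A1, NR0B1, the NR4A family (NR4A1, NR4A2 and NR4A3), GATA6, WT1, NR2F1 and NR2F2. They were chosen by name and matched to Ensembl identifiers, and they are 9 of the 60671 genes in the count tables. Polyadenylated RNA was sequenced from H295R cells, a steroid-producing line derived from a human adrenocortical carcinoma. The cells were labelled wild type (WT), SGPL1 KO or SGPL1 OE (overexpression), with 3 libraries each, were grown in the same medium to the same confluency, and received no treatment. SGPL1 encodes sphingosine-1-phosphate lyase, which breaks down the lipid messenger sphingosine-1-phosphate. The submitters describe the libraries within each group as biological replicates. Whether they came from separate cultures or clones was not given in the sources used here, nor were the site of the edit and the overexpression construct, so p-values measure a spread among libraries that may be partly technical. Of the 9 genes, 7 were tested, NR2F1 had counts too low to be tested, and WT1 had no count in any library.

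NR5A1, also called steroidogenic factor 1, binds the promoters of most steroidogenic enzyme genes and is needed for the adrenal cortex to form. NR0B1, also called DAX-1, is a nuclear receptor without a DNA-binding domain that represses NR5A1. The NR4A receptors are rapid-response factors: their genes are induced as immediate early genes by cAMP and calcium signalling, and their proteins bind promoters of steroidogenic genes without a known physiological ligand. GATA6 is a zinc-finger factor that cooperates with NR5A1 on steroidogenic promoters. WT1 acts earlier, in the adrenogonadal primordium. NR2F1 and NR2F2, the COUP transcription factors, compete with NR5A1 for overlapping binding sites.

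The regions just before the RefSeq transcription starts (RefSeq, GRCh38.p14) are shown for NR5A1 and for the 3 members that changed against WT in at least 1 comparison below (NR0B1, NR4A1 and NR4A3), 5′ to 3′ on the gene's strand and without annotated exon bases. The searched motifs were AGGTCA, a nuclear receptor half-site, TGACGT, the core of the cAMP response element, and CACGTG, an E-box, each on both strands in the 250 bases before a start. The full palindromic cAMP response element, TGACGTCA, was also searched. No window of a member held it, compared with 1.65% of 35116 windows that did. Matches are in capitals. The NR5A1 stretch (chr9:124507421-124507649, minus strand) held 1 CACGTG, 82 bases before the start, as did 6.34% of 35116 windows. The NR0B1 stretch (chrX:30309391-30309640, minus strand) held 1 AGGTCA, 143 bases before the start, as did 12.1% of windows. The NR4A3 stretch (chr9:99821635-99821854, plus strand) held TGACGT 109 and 83 bases before the start. A further TGACGT lay 25 bases before it, in an exon of the counted annotation that is not shown. A window with TGACGT was found in 7.1% of cases. Neither of the NR4A1 windows (chr12:52022582-52022831 and chr12:52037465-52037714, plus strand) held any of the 3 motifs. Only these windows were searched for NR4A1, and any other start of the gene, which runs to 52059507, was not.
NR5A1: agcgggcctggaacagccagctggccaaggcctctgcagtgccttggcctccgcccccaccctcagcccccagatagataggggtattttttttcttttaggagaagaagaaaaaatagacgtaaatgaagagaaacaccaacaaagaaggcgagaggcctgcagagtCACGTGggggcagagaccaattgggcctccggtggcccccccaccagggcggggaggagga
NR0B1: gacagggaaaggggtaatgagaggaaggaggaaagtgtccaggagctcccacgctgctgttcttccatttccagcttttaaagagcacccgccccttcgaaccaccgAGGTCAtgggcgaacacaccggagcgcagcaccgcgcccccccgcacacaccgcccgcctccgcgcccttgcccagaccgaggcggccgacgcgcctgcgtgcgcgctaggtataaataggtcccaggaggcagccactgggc
NR4A3: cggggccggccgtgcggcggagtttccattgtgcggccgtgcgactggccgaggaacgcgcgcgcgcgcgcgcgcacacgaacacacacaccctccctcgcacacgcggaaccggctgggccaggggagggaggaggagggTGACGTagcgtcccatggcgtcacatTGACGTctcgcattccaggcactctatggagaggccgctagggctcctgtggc
NR4A1 first start: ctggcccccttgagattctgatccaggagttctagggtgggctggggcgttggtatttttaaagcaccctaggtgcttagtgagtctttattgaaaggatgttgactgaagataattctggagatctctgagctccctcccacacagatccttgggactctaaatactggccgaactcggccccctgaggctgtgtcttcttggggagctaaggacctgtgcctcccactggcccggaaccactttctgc
NR4A1 second start: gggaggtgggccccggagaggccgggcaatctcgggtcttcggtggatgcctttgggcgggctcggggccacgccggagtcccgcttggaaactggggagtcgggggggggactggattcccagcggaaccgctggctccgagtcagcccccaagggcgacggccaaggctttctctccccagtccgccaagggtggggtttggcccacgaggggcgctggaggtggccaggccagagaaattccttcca

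RefSeq windows were matched for 8 of the 9 members (14 windows). The GATA6 window and both NR2F1 windows had no match to the 3 motifs. For WT1, 1 of its windows held AGGTCA, 167 bases before the start, and for NR2F2 CACGTG lay 178 and 121 bases before 1 start, within exons of the counted annotation. Among immediate early genes with a RefSeq start, 13 of 27 (48.1%) had TGACGT in a window, compared with 8.62% of 27305 genes. Among steroidogenic genes, 3 of 12 had AGGTCA, compared with 14.6% of all genes. These matches describe letters in a window and not occupied sites.

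SGPL1 itself had fewer counts in KO, while the group labelled OE did not exceed WT. In CPM (counts scaled to the TMM-adjusted library total), WT stood at 101.5, 83.4 and 98.1, KO at 47.2, 43.9 and 53.8, and the OE label at 98.1, 81.3 and 101.2. The KO group lay below both others, which overlapped, so the OE group is named by its label throughout. Counts over the whole gene include reads of an edited transcript. Library totals ran from 8006873 to 10895080 counts. Transcripts of ribosomal proteins took 5.12% to 6.73% of counts in WT, 4.07% to 4.85% in KO and 7.23% to 9.26% in the OE-labelled libraries. The slope of log2 CPM on log2 gene length, relative to the mean of all libraries, ran from -0.053 to 0.103 in WT, from 0.042 to 0.129 in KO and from -0.204 to -0.075 in the OE-labelled libraries, so long genes had lower counts in the last group. Defining markers of the cortex were present: 10 of 11 passed the filter on low counts, and their summed level was 3680 to 4110 CPM in WT, 6690 to 8270 CPM in KO and 4610 to 5280 CPM in the OE-labelled libraries. Most of that sum came from DLK1, whose mean CPM was 2595 ± 198 in WT, 5796 ± 756 in KO and 3037 ± 209 under the OE label (SD, n = 3). Of 10 chromaffin markers 7 had no count, among them TH, DBH and PNMT, which make catecholamines. CHGB, a granule protein of many secretory cells, was the most abundant of the list and was called lower in KO (-1.27 ± 0.16, adjusted p = 3.9e-05) and under the OE label (-1.39 ± 0.16, adjusted p = 0.000104). The summed CPM of the chromaffin list was 36.6 to 38.4 in WT, 16 to 17.9 in KO and 13.7 to 16 under the OE label. For 9 fibroblast markers the sum was 48.4 to 58.3 in WT, 51.0 to 58.2 in KO and 35.8 to 43.5 under the OE label, with LUM at 0. Of 3 tested, 1 was called lower in each comparison with WT, where 9.6% (KO) and 11% (OE label) of all genes were. COL3A1 averaged 11.5 CPM in WT, 3.75 in KO and 3.93 under the OE label. PDGFRB was not tested. It averaged 0.0767 CPM in WT (2 counts over 3 libraries) and 2.08 ± 0.904 CPM in KO (56 counts). For 6 epithelial markers the summed CPM was 26.7 to 30.8 in WT, 13.9 to 15.7 in KO and 30.1 to 34.0 under the OE label, with EPCAM called lower in KO (-1.08 ± 0.16, adjusted p = 0.000192) and KRT5 and KRT14 at 0. No endothelial or leukocyte marker exceeded 26 counts in a library. The part of these markers in the members' results was not tested.

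The members spanned a wide range of levels. Per kilobase of counted gene length, so that genes can be compared, NR5A1 stood at 225 ± 17.9 CPM per kb in WT (SD, n = 3), rank 133 of the 14150 genes tested. NR2F2 followed at 17.6 ± 1.93 CPM per kb, NR4A3 at 9.85 ± 2.49, NR4A1 at 9.39 ± 1.72, GATA6 at 4.94 ± 0.722, NR0B1 at 2.38 ± 0.708 and NR4A2 at 0.394 ± 0.0692. In WT the libraries of NR4A3 and NR4A1 overlapped, whereas each of the other steps in this order separated all 3 libraries of 1 gene from all 3 of the next.

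In KO the order was different. NR0B1 moved from the 35.2 percentile of tested genes in WT to the 62.0 percentile in KO and stood at 7.68 ± 1.27 CPM per kb, above NR4A3 (5.31 ± 0.732) and GATA6 (5.18 ± 0.255), which overlapped each other. NR4A1 stood at 12.1 ± 1.09 and NR2F2 at 21.3 ± 1.34 CPM per kb. In the OE-labelled libraries, NR4A3 (8.98 ± 0.741 CPM per kb) lay above NR4A1 (6.55 ± 0.939) in all 3 libraries, and NR4A1 overlapped GATA6 (4.57 ± 0.959). The counted length is the union of all annotated exons, so a gene with many annotated but little used exons has a low value on this scale.

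**Figure D1:**
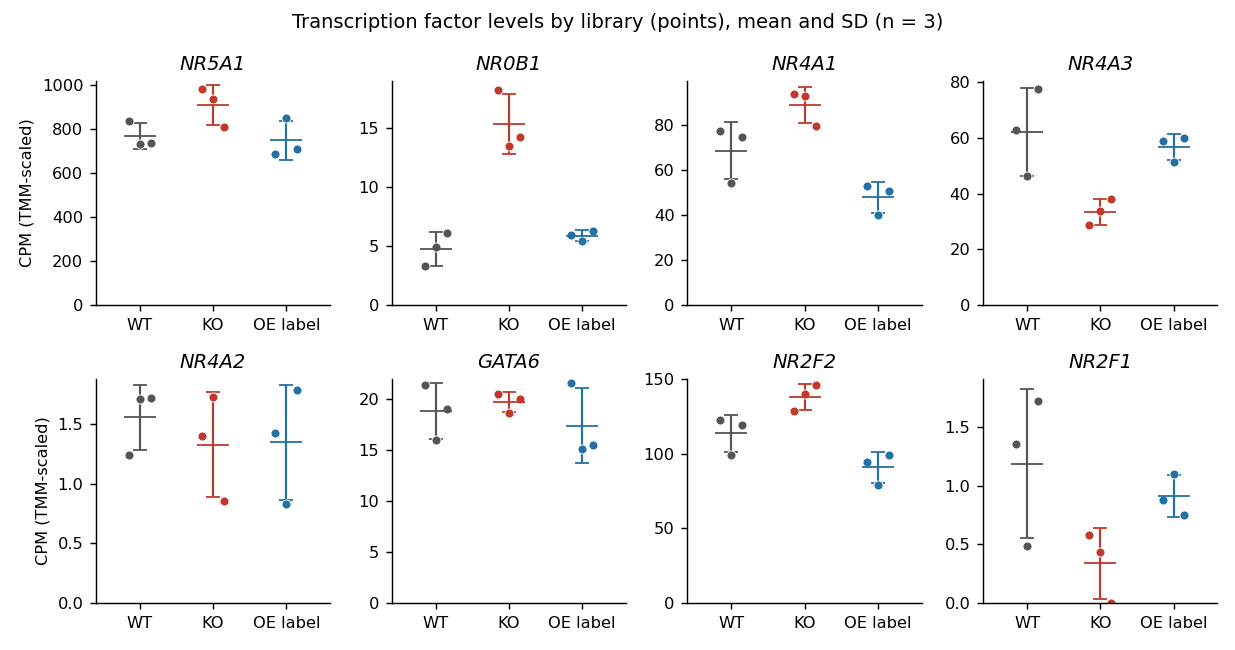
Levels of the 8 members with counts, in CPM (TMM-scaled) on the vertical axis of each panel, by group on the horizontal axis. Points are libraries, and lines give the mean and SD of 3 libraries. The NR0B1 points of KO (13.5 to 18.2 CPM) lie above all WT points (3.28 to 6.10 CPM), and the NR4A3 points of KO (28.7 to 38.0 CPM) lie below all WT points (46.2 to 77.6 CPM).

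NR5A1 (ENSG00000136931, chromosome 9, 124481236 to 124507420, GRCh38) was the most abundant member in every library. Its level was 838, 730 and 736 CPM in WT, 983, 938 and 807 CPM in KO, and 685, 849 and 711 CPM in the OE-labelled libraries. The KO libraries included the 2 highest values, but the lowest KO library lay below the highest WT library, so the groups overlapped. Relative to WT, the log2 fold change was 0.24 ± 0.11 (SE) in KO, with a 95% interval of 0.00 to 0.49 and an adjusted p of 0.160 by edgeR's quasi-likelihood test. In the OE-labelled libraries it was -0.04 ± 0.11, with an interval of -0.28 to 0.21 and an adjusted p of 0.847. The 95% intervals are not adjusted for the number of genes. With counts corrected for gene length, NR5A1 in KO passed the threshold at 0.28 (adjusted p = 0.0458).

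NR0B1 (ENSG00000169297, X chromosome, 30304206 to 30309390), the repressor of NR5A1, rose in KO. Its level was 3.28, 4.89 and 6.10 CPM in WT, 18.2, 13.5 and 14.2 CPM in KO, and 5.94, 5.39 and 6.30 CPM in the OE-labelled libraries. The lowest KO library was above every other library, while WT and the OE-labelled libraries overlapped. Its rise in KO was 1.68 ± 0.24 on the log2 scale, or 3.21-fold (95% interval 1.17 to 2.20, adjusted p = 0.000110). For the OE label the value was 0.31 ± 0.26 (interval -0.23 to 0.85), with an adjusted p of 0.418. These values rest on 29 to 53 counts per WT library and 125 to 156 per KO library. The KO call held without any single library, with log2 fold changes from 1.47 to 1.91.

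The ratio of the repressor to its target was a within-library value and so independent of the scaling of libraries. This ratio and the one below were chosen after the levels were seen and are descriptions only. Per kilobase, NR0B1 amounted to 0.669%, 1.15% and 1.42% of NR5A1 in the WT libraries, 3.17%, 2.46% and 3.01% in the KO libraries and 1.48%, 1.09% and 1.52% in the OE-labelled libraries. NR0B1 transcripts were thus a small fraction of NR5A1 transcripts in every library, and the fraction was highest in the 3 KO libraries.

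The NR4A family was divided. NR4A3 (ENSG00000119508, chromosome 9, 99821855 to 99866891), also called NOR-1, fell in KO. Its level was 62.8, 46.2 and 77.6 CPM in WT, 28.7, 33.8 and 38.0 CPM in KO, and 58.9, 51.3 and 59.8 CPM in the OE-labelled libraries. All KO libraries lay below all others, and the WT libraries spanned those labelled OE. The fall in KO was -0.89 ± 0.18 on the log2 scale, to 53.9% of WT (95% interval -1.26 to -0.52, adjusted p = 0.00174). Under the OE label NR4A3 stood at -0.13 ± 0.17 relative to WT (interval -0.50 to 0.23, adjusted p = 0.628). Leaving out single libraries moved the KO value between -1.07 and -0.70 and kept its adjusted p at or below 0.012.

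NR4A1 (ENSG00000123358, chromosome 12, 52022832 to 52059507), also called NUR77, was higher than WT in KO without passing the test and fell in the OE-labelled libraries. Its level was 77.0, 54.0 and 74.4 CPM in WT, 93.5, 92.7 and 79.4 CPM in KO, and 52.7, 40.0 and 50.8 CPM in the OE-labelled libraries. The 3 groups did not overlap, with KO highest and the OE-labelled libraries lowest. Relative to WT, the log2 difference in KO was 0.37 ± 0.16 (interval 0.04 to 0.70, adjusted p = 0.112). That under the OE label was -0.52 ± 0.16, or 69.9% of WT (interval -0.85 to -0.18, adjusted p = 0.0289).

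The OE call of NR4A1 was lost without WT replicate 1 (-0.42, adjusted p = 0.139), WT replicate 3 (-0.45, 0.118), OE replicate 2 (-0.39, 0.12) or OE replicate 3 (-0.56, 0.0535), and with counts corrected for gene length it was -0.37 (adjusted p = 0.062). NR4A1 is counted over 7295 bases, and the fit limited to the groups compared gave an adjusted p of 0.0504. Of its exonic bases, 10.3% are shared with NR4A1AS, an antisense gene, and reads there were left out by the counting.

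NR4A2 (ENSG00000153234, chromosome 2, 156324437 to 156342348), also called NURR1, was close to the limit of the counting. WT libraries held 11, 14 and 15 counts of it, KO libraries 12, 16 and 8, and OE-labelled ones 13, 6 and 19. The groups overlapped, and its log2 fold change was -0.23 ± 0.48 in KO (adjusted p = 0.796) and -0.18 ± 0.48 in the OE-labelled libraries (adjusted p = 0.825). The 95% interval for KO, -1.24 to 0.78, includes the fall of NR4A3, so a fall of that size in NR4A2 was not excluded at this depth.

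The balance between NR4A1 and NR4A3 differed between the groups. Per kilobase, NR4A1 was 1.06, 1.01 and 0.83 times NR4A3 in the WT libraries, 2.81, 2.37 and 1.81 times in the KO libraries, and 0.773, 0.674 and 0.735 times in the OE-labelled libraries. The ratio was thus 1.81 or more in every KO library and 1.06 or less in every other. The 3 receptors together amounted to 20.8, 15.2 and 22.9 CPM per kb in WT, to 17.7, 18.5 and 17.1 CPM per kb in KO, and to 16.9, 13.8 and 16.9 CPM per kb under the OE label. The summed levels of WT and KO overlapped, whereas the shares of NR4A1 and NR4A3 did not. NR4A1 made up 44.5% to 50.7% of the sum in WT and 63.6% to 72.3% in KO, and NR4A2 at most 2.85% in any library.

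**Figure D2:**
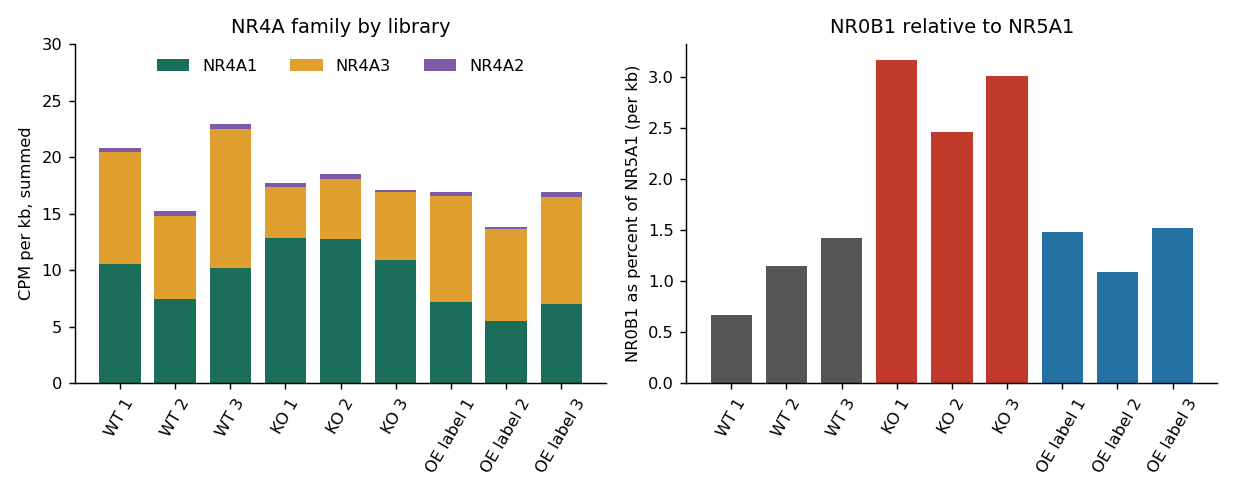
Left, summed CPM per kb of the NR4A family in each library, stacked by gene; right, NR0B1 per kb as percent of NR5A1 per kb in each library. The NR4A1 share is 63.6% to 72.3% in KO and 44.5% to 50.7% in WT, and NR0B1 is 2.46% to 3.17% of NR5A1 in KO and 0.669% to 1.42% in WT.

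GATA6 (ENSG00000141448, chromosome 18, 22169589 to 22202528) was not called in any comparison. Its level was 21.4, 15.9 and 19.0 CPM in WT, between 18.6 and 20.4 CPM in the 3 KO libraries, and 21.6, 15.1 and 15.4 CPM under the OE label. All groups overlapped, with log2 fold changes of 0.07 ± 0.18 in KO (adjusted p = 0.843, interval -0.32 to 0.45) and -0.11 ± 0.18 in the OE-labelled libraries (adjusted p = 0.709, interval -0.50 to 0.28). WT1 (ENSG00000184937, chromosome 11, 32387775 to 32435564) had 0 counts in all 9 libraries. A count of 0 allows up to 3 counts, or 0.282 to 0.415 CPM per library, which covers counting error only. Its antisense gene WT1-AS also had no count.

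NR2F2 (ENSG00000185551, chromosome 15, 96325938 to 96340263), also called COUP-TFII, was ordered like NR4A1. Its level was 122, 99.4 and 119 CPM in WT, 129, 139.7 and 146 CPM in KO, and 94.6, 79.2 and 98.9 CPM in the OE-labelled libraries. The KO libraries lay above all WT libraries, and those labelled OE lay below them. Neither difference from WT passed the test: the log2 fold change was 0.28 ± 0.13 in KO (adjusted p = 0.144, interval 0.01 to 0.55) and -0.32 ± 0.13 in the OE-labelled libraries (adjusted p = 0.0849, interval -0.59 to -0.05). The difference between the OE-labelled libraries and KO did pass, at -0.60 ± 0.13 (adjusted p = 0.00152).

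NR2F1 (ENSG00000175745, chromosome 5, 93583222 to 93594611), also called COUP-TFI, was barely expressed. Its counts were 12, 4 and 15 in WT, 5, 4 and 0 in KO, and 8 in each library labelled OE. The KO counts were low, but 1 WT library had as few, and without the filter on low counts the log2 fold change of -1.78 ± 0.81 had an adjusted p of 0.177. The antisense gene NR2F1-AS1 had 6, 5 and 6 counts in WT, none in any KO library, and 6, 2 and 5 under the OE label. Its WT mean of 0.66 CPM was 1.99 times a floor of 3 counts per KO library. That mean rests on 5 or 6 counts per library and the gene was not tested, so the size of the difference is uncertain. Of 4 listed antisense genes of members, GATA6-AS1 alone passed the filter, with log2 fold changes of 0.19 ± 0.38 in KO and 0.30 ± 0.38 in the OE-labelled libraries and no call.

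The tested members had 2 calls in KO against WT, 1 higher (NR0B1) and 1 lower (NR4A3), out of 7. Over all 14150 genes tested, 18.8% were called in that comparison, 9.16% higher and 9.6% lower. Groups without overlap were found for 4 of the 7, against 35.2% of all genes. Under the OE label, 1 of 7 was called against WT (NR4A1, lower), where 20.7% of all genes were, and 2 of 7 did not overlap (36.4% of all genes). Both comparisons use the same WT libraries, so their values are given side by side and are not independent. With 7 members, counts of 2 and 1 are near these background shares.

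The comparison of the OE-labelled libraries with KO gave more calls. NR4A3 was higher, by 0.76 ± 0.18 on the log2 scale (adjusted p = 0.00284). NR0B1 (-1.37 ± 0.24, adjusted p = 0.000295), NR4A1 (-0.89 ± 0.16, adjusted p = 0.000378) and NR2F2 were lower. These 4 of 7 stand beside 39.7% of all genes called and 51.7% without overlap, shares near that of the members. NR5A1 was not called at -0.28 ± 0.11 (adjusted p = 0.0616), and GATA6 and NR4A2 were at -0.18 ± 0.18 and 0.05 ± 0.48.

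**Figure D3:**
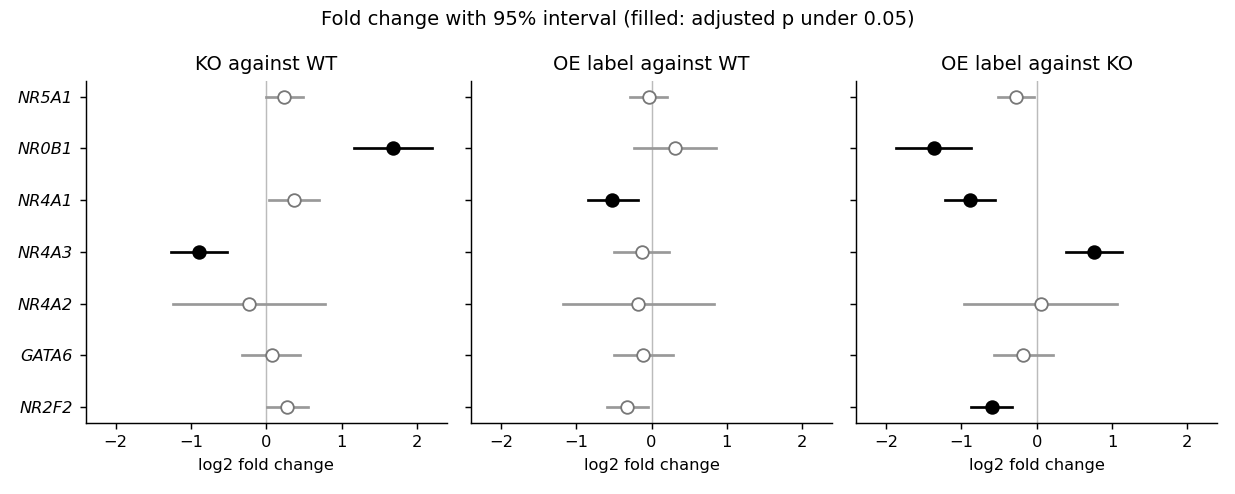
Log2 fold changes of the 7 tested members (horizontal axis) in the 3 comparisons, with 95% intervals from the edgeR fit; filled points have an adjusted p under 0.05. NR0B1 lies at 1.68 and NR4A3 at -0.89 in KO against WT, and NR4A1 at -0.52 is the filled point in OE against WT.

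The spread of the members between replicate libraries was compared with that of 500 genes of similar level. The biological coefficient of variation was 0.111 for NR5A1, 0.115 for NR2F2, 0.136 for NR4A1, 0.146 for GATA6, 0.15 for NR4A3, 0.172 for NR0B1 and 0.262 for NR4A2. The value of NR4A3 stood at the 77 percentile and that of NR4A1 at the 67.4 percentile of such genes. The other members lay between the 14.6 and 50.8 percentiles, so none had a spread at the upper end. In bulk samples such as these, fewer cells that express a gene and less RNA per cell cannot be told apart.

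Each member was also set beside the 50 tested genes nearest to it on its chromosome. NR5A1 and NR4A3 both lie on chromosome 9, whose 601 tested genes had a median log2 fold change of -0.26 in KO, against -0.01 over all genes. Around NR5A1 (121178133 to 127503501) the median of the neighbours was -0.30, with 15 called lower and 0 higher. NR5A1, at 0.24, lay above 48 of its 50 neighbours.

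Around NR4A3 (96639577 to 107332192) the median was -0.31, with 13 neighbours called lower and 2 higher. NR4A3, at -0.89, lay below all but 1 of them. The shift of the region moves the same way as NR4A3, and its part in the fall of NR4A3 was not tested. The same regions in OE against WT had medians of -0.14 and -0.11. With 20 neighbours in place of 50, the first of these was 0.01.

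The neighbours of NR0B1 had a median of 0.16 in KO, with 8 called higher and 4 lower, and NR0B1 lay above all 50. NR4A1 lay above 45 of 50 neighbours (median -0.05) and NR2F2 above 34 of 43 (median -0.08). Over the 476 tested genes of chromosome 15, where NR2F2 lies, the median was 0.19 in KO against WT and -0.28 in the OE-labelled libraries against KO, the direction of NR2F2 in both. The neighbours of NR4A2 had a median of 0.34, with 10 called higher and 1 lower, and NR4A2 lay above 4 of them. GATA6 lay above 27 of 50 (median 0.06). Some of these medians moved with the number of neighbours: with 100, that of NR0B1 was 0.05, that of NR4A2 0.15 and that of NR2F2 (68 genes) -0.19, and with 20 that of NR4A1 was -0.20.

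**Figure D4:**
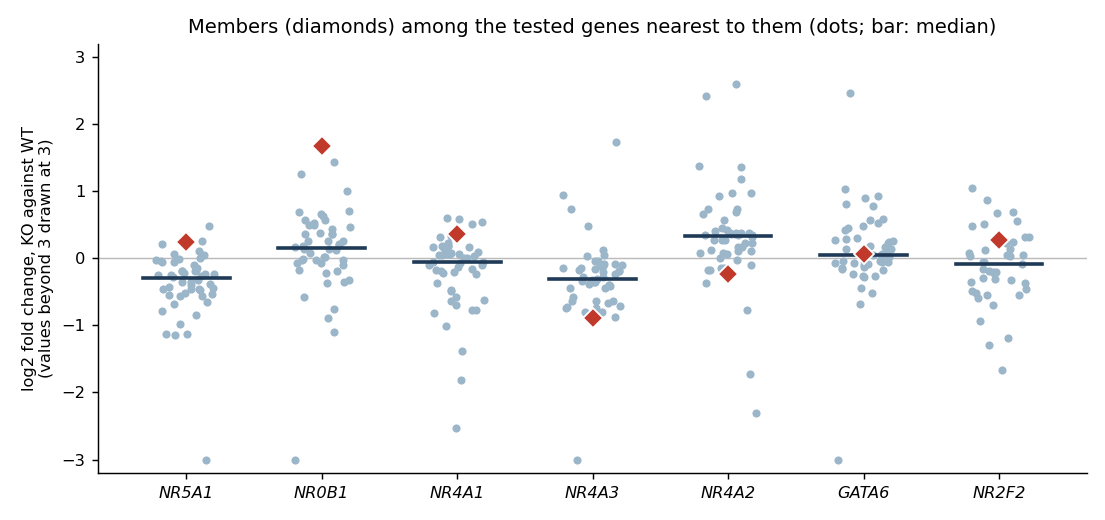
Log2 fold change in KO against WT (vertical axis) of each tested member (diamond) and of the tested genes nearest to it on its chromosome (dots, bar at their median); values beyond 3 are drawn at 3. NR0B1 lies above all 50 neighbours, and the neighbours of NR5A1 and NR4A3 have medians of -0.30 and -0.31.

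For each tested member, the protein-coding genes with the most similar profile were taken by Pearson correlation of log2 CPM over the 9 libraries, among genes with at least 5 CPM on average. The points share 3 groups and their libraries' composition, so the values are descriptions. The genes named are the highest of 10363 compared over only 9 libraries, so high values were bound to occur. NR0B1 was most like APOE, an apolipoprotein gene (r = 0.975), which averaged 1.48 CPM in WT, 12.4 in KO and 1.61 in the OE-labelled libraries. SLC10A7 (r = 0.97) and CLXN (0.966) followed. SLC10A7 averaged 4.02 CPM in WT, 7.25 in KO and 4.36 in the OE-labelled libraries. APOE and SLC10A7 thus reached the 5 CPM average only through KO, the group where NR0B1 is high. Their likeness to NR0B1 follows in part from this filter. NR4A3 was most like SEPTIN3 (r = 0.987), ATP9A (0.969) and HS6ST3 (0.957), the last of which averaged 9.97 CPM in WT and 0.478 CPM in KO.

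NR4A1 was most like AHDC1 (r = 0.987), FOXM1, a cell cycle transcription factor (0.987), and FGFRL1 (0.985). FOXM1 averaged 227 CPM in WT, 313 in KO and 138 in the OE-labelled libraries. NR2F2 was most like ZBTB37 (0.988), TENM3 (0.987) and NDUFS1 (0.986). NR5A1 was most like CTBP1, a transcriptional corepressor (0.981), PNMA8B (0.962) and AP1B1 (0.951), with CTBP1 at 172, 212 and 171 CPM in the 3 groups. GATA6 was most like ATXN7L3 (0.963), DHX37 (0.922) and FAM219A (0.915). For NR4A2 the values were lower, at 0.881 (ZNF670), 0.853 (CDK5R1) and 0.835 (RIPK4).

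The steroidogenic genes, a pathway that NR5A1 regulates, were considered next. Binding of the factors to these genes was not measured. Of 20 listed genes 16 were tested, and in KO 7 rose and 0 fell, with a median of 0.34 against -0.01 over all genes, of which 9.16% were called higher. The 16 include CYP11B1, with 0, 0 and 2 counts in WT, 15, 20 and 15 in KO and 2, 4 and 2 under the OE label. CYP11B1 passed the filter on low counts only through KO, the group where it is high. Its part in the counts and the median thus follows from this filter and is no support for a rise. SULT2A1, which sulphates steroids, rose by 1.01 ± 0.11 (adjusted p = 6.09e-06), and INHA, the inhibin alpha subunit, by 1.44 ± 0.26 (adjusted p = 0.00074). INHA was at 5.31, 6.48 and 4.49 CPM in WT and at 17.3, 15.8 and 11.1 CPM in KO, without overlap. Also higher were STAR, which moves cholesterol into mitochondria, SCARB1, the receptor for high-density lipoprotein, and HSD3B2, a steroid dehydrogenase.

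Relative to WT, 8 of the 16 rose under the OE label and 0 fell, with a median of 0.52, where 9.65% of all genes were called higher. HSD3B2 rose by 2.90 ± 0.15 (adjusted p = 9.02e-09), CYP21A2, the 21-hydroxylase, by 1.66 ± 0.13, SCARB1 by 0.83 ± 0.11, and the electron donors FDXR and POR by 0.70 ± 0.16 and 0.53 ± 0.12. HSD3B2 and CYP21A2 have near-identical copies, so their counts are uncertain. SULT2A1 was not called there at -0.19 ± 0.11 (adjusted p = 0.224), but with counts corrected for gene length it was called lower at -0.41 (adjusted p = 0.0212), so the count of falls was then 1. Of the 16 steroidogenic genes tested, 7 differed between the OE-labelled libraries and KO, 3 higher and 4 lower, the latter including SULT2A1 and INHA. Over all genes, 19% were called higher and 20.6% lower in that comparison, shares near those of the list. The count of 8 came to 5 without WT replicate 1, WT replicate 3 or OE replicate 2.

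Cofactors and partners of the factors numbered 35, of which 32 were tested. In KO 3 rose and 3 fell (median 0.04), a share of calls equal to the 18.8% over all genes. The rises included PIAS1, a SUMO ligase (0.59 ± 0.13, adjusted p = 0.00489), and CREM, a cAMP-response factor (0.38 ± 0.10, adjusted p = 0.0156). RXRA, the partner of many nuclear receptors, fell (-0.53 ± 0.14, adjusted p = 0.0113). The CREM call was lost without WT replicate 1 (0.38, adjusted p = 0.0619) or WT replicate 3 (0.34, 0.0622), and the RXRA call without WT replicate 1 (-0.47, 0.062) or KO replicate 3 (-0.45, 0.0594). The 3 falls came to 0 without WT replicate 1 or KO replicate 3 and to 1 without KO replicate 1, KO replicate 2 or WT replicate 3.

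Under the OE label, 11 of the 32 cofactors fell against WT and 2 rose, with a median of -0.41, where 11% of all genes were called lower. The acetyltransferases CREBBP (-1.49 ± 0.27, adjusted p = 0.00189) and EP300 (-1.10 ± 0.28, adjusted p = 0.0115) fell, as did the corepressor NCOR1 (-0.81 ± 0.20, adjusted p = 0.0111). These are long genes, and with counts corrected for gene length 6 of the 32 fell. CREBBP (-1.08) and EP300 (-0.77) were still called then, while NCOR1 was at -0.40 (adjusted p = 0.0908) and MEIS1 at -0.30 (adjusted p = 0.123). CREBBP was at 68.9, 33.1 and 91.3 CPM in WT and at 29.3, 16.7 and 22.5 CPM in the OE-labelled libraries. The WT libraries had a wide spread. Without WT replicate 1 or WT replicate 3 the adjusted p was 0.0512 and 0.0749 for EP300 and 0.0637 and 0.0677 for NCOR1. The count of 11 was 3 without WT replicate 1 or WT replicate 3, 5 without OE replicate 2 and 7 without OE replicate 3.

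Of 41 other nuclear receptors 31 were tested, and in KO 4 rose and 2 fell (median 0.11), a share of calls near the 18.8% over all genes. THRB, a thyroid hormone receptor, rose by 1.39 ± 0.28 (adjusted p = 0.00227), from 7.01, 2.81 and 5.64 CPM in WT to 13.6, 14.3 and 12.8 CPM in KO. The orphan receptor ESRRG rose by 0.83 ± 0.21 (adjusted p = 0.0107), a call lost without KO replicate 3 (0.69, 0.0632). Without that library 1 of the 31 was called higher, and both falls were lost without it or without WT replicate 1.

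Among the same receptors, 1 rose and 3 fell under the OE label against WT (median -0.23), where 20.7% of all genes were called. VDR, the vitamin D receptor, rose by 0.82 ± 0.17 (adjusted p = 0.0043), from 23.6, 16.9 and 26.8 CPM in WT to 35.6, 45.8 and 37.9 CPM. NR2C2, a testicular orphan receptor, fell by 1.11 on the log2 scale (adjusted p = 0.00949). The NR2C2 call was lost without WT replicate 3 (-0.88, adjusted p = 0.0554), as were the other two falls. The 3 falls came to 1 without WT replicate 1, KO replicate 1, KO replicate 2, OE replicate 2 or OE replicate 3.

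Immediate early genes, to which the NR4A genes belong by their mode of induction, changed in both directions. Of 37 others that were listed 29 were tested, and in KO 5 rose and 7 fell (median -0.11), against 9.16% higher and 9.6% lower over all genes. KLF4, a Kruppel-like factor, was at 4.64, 3.79 and 5.06 CPM in WT and at 0.467, 0.216 and 0.963 CPM in KO (a log2 fold change of -3.0 ± 0.45, adjusted p = 0.000152). FOSL2, a partner of Jun proteins, fell by 1.25 on the log2 scale (adjusted p = 3.31e-05), from 64.9, 60.9 and 79.3 CPM to 25.1, 28.3 and 32.6 CPM. PPP1R15A, a stress-induced phosphatase subunit, fell by 1.00 on the log2 scale (adjusted p = 0.00036).

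The phosphatases DUSP5 and DUSP6, which inactivate ERK kinases, rose in KO by 1.48 ± 0.18 (adjusted p = 1.9e-05) and 0.69 ± 0.15 (adjusted p = 0.00327). DUSP5 was at 31.2, 29.2 and 21.97 CPM in WT and at 84.7, 77.8 and 68.2 CPM in KO. The NR4A genes are not on this list, so its counts do not include the fall of NR4A3. FOS and JUN, the textbook immediate early genes, were not called in KO (-0.16 ± 0.48 and 0.28 ± 0.18). FOS had only 10 to 13 counts per WT library and 9 to 14 per KO library, about as few as NR4A2, so its value is uncertain. The 5 rises were 3 without KO replicate 1. The count of 7 falls was 3 without WT replicate 2 or KO replicate 3, and 4 without WT replicate 1, without KO replicate 2 or with WT replicate 2 and OE replicate 2 left out together.

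Among immediate early genes, 3 rose and 3 fell under the OE label against WT (median 0.08), a share of calls about equal to the 20.7% over all genes. EGR1 rose by 1.04 ± 0.21 (adjusted p = 0.00341), from 9.16, 8.68 and 9.43 CPM in WT to 22.4, 14.9 and 18.7 CPM. In KO, EGR1 was at 7.13, 5.08 and 4.71 CPM and fell (-0.69 ± 0.23, adjusted p = 0.0425), but this call was lost without any 1 WT library, without KO replicate 2 or 3, or without OE replicate 3 (-0.73 to -0.57, adjusted p up to 0.16). FOSL2 fell under the OE label too, by 1.00 on the log2 scale (adjusted p = 0.000662), as did KLF6 (-0.45 ± 0.11, adjusted p = 0.0123) and SIK1, a salt-inducible kinase (-1.48 ± 0.42, adjusted p = 0.0202). The SIK1 call was lost without WT replicate 1 (-1.13, adjusted p = 0.132) or OE replicate 1 (-1.14, 0.07). Under this label NR4A1 was thus called lower and EGR1 higher.

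**Figure D5:**
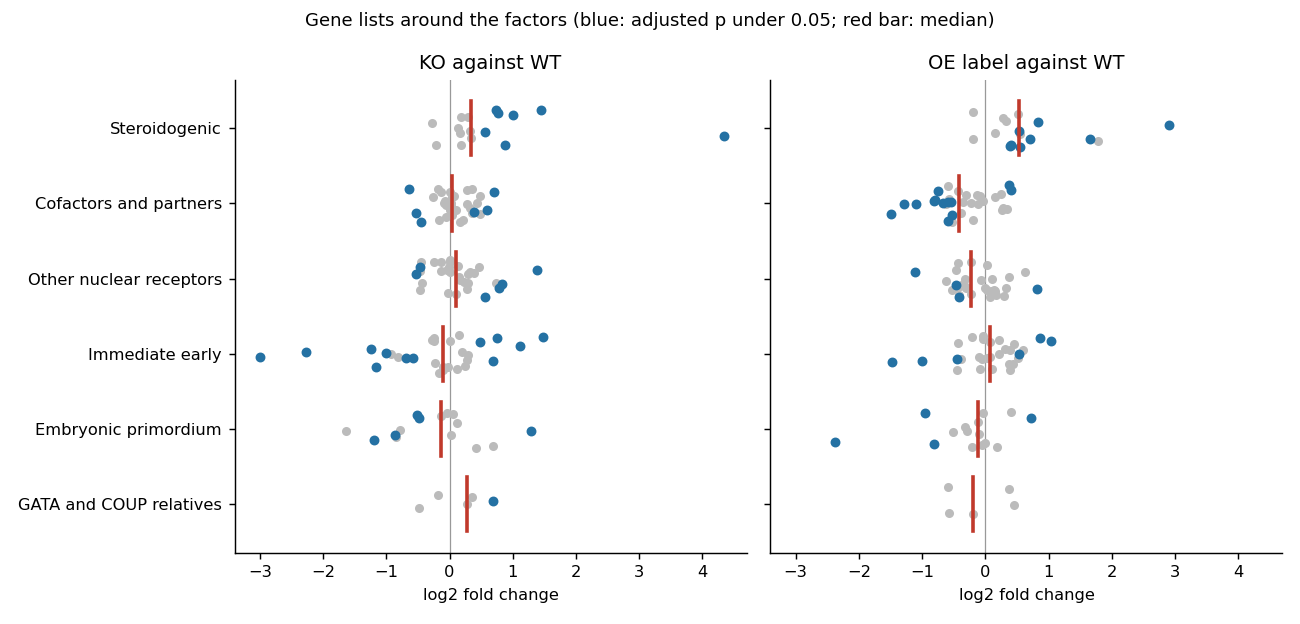
Log2 fold changes (horizontal axis) of the tested genes of 6 lists around the factors (rows) in KO against WT and OE against WT; blue points have an adjusted p under 0.05, grey points do not, and red bars are medians. Steroidogenic genes have medians of 0.34 and 0.52, and cofactors of 0.04 and -0.41.

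The GATA and COUP-TF relatives comprised 8 genes, of which 5 were tested. GATA3 rose in KO by 0.69 ± 0.22 (adjusted p = 0.0366), a call lost without any 1 WT library or without KO replicate 1 or 2 (0.51 to 0.79, adjusted p up to 0.156). No relative was called under the OE label against WT, where ZFPM1, the nearest to a call, was at -0.59 ± 0.25 (adjusted p = 0.102). GATA4, the closest relative of GATA6 in the adrenal, was at 10.2 CPM in WT, 9.08 in KO and 8.99 in the OE-labelled libraries on average and was not called (-0.18 ± 0.21 in KO, adjusted p = 0.634). NR2F6, a further COUP family member, was at 0.27 ± 0.16 in KO and 0.38 ± 0.16 in the OE-labelled libraries, also not called. With a term for the replicate number, the latter was called at 0.39 (adjusted p = 0.0421).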

How the data were processed

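The authors deposited unnormalized whole-number read counts, 1 column per library, for 9 libraries of poly-A selected RNA. Per the file headers, the counting tool was featureCounts 1.5.2 with Ensembl release 101 (GRCh38) and no strand option. Its defaults drop multiply mapped reads and reads shared by several genes. The submitters' processing notes also name FastQC, HISAT2, Subread, featureCounts and DESeq2. Library totals of 8006873 to 10895080 counts gave log2 fold changes with a median standard error of 0.187.

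The test was the quasi-likelihood F test in edgeR 4.0.16 (R 4.3.3) with TMM scaling, filterByExpr (minimum count 10), all 9 libraries in one fit and Benjamini-Hochberg adjustment over 14150 genes. An adjusted p under 0.05 was a call. Levels are CPM, with mean and SD over 3 libraries. The length correction fitted, for each library, a lowess curve (span 0.3) of log2 CPM on log2 gene length. Symbols were found for 58536 of 60671 identifiers. The test was checked on simulated counts with the same spread for all genes and no shift of gene length or composition between libraries. The check therefore does not cover the shifts seen in these libraries. The 21 alternatives were other scalings and filters, DESeq2 1.42.0, limma-voom (limma 3.58.1), the length correction, a replicate term and leaving out libraries. One of them, leaving out WT replicate 2 and OE replicate 2 together, was chosen after seeing the data.

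The members and the gene lists were chosen with earlier results of these data known. Named are all 9 members, SGPL1, up to 5 called genes per list with the smallest adjusted p in each comparison with WT, and the 3 genes most like each tested member. Some genes that this rule selects are not reported here. FOS, JUN, GATA4, NR2F6, ZFPM1, DLK1, CHGB, EPCAM and the KO values of EGR1 were added after their values were seen.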

Additional observations from a re-analysis of the deposited data

How the results depend on the processing

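Of the members' fold changes under the 21 alternatives, 406 kept direction and side of the threshold, 15 gained a call, 6 lost one (all NR4A1 in OE against WT) and 14 changed sign. The KO calls of NR0B1 (1.47 to 1.91) and NR4A3 (-1.07 to -0.70) and the 4 calls in OE against KO held in all of them. In KO against WT, members called higher numbered 2 with the length correction (NR5A1 added), 2 with the replicate block (NR4A1 added) and 3 with the replicate block and the length correction together. In OE against WT, members called lower numbered 2 with library totals alone (NR2F2 added), 0 with only the groups compared, 0 with the length correction, 2 with the replicate block, and 0 to 2 when single libraries were left out (2 without WT replicate 2). NR5A1 in OE against KO passed in 8 alternatives (-0.44, adjusted p = 0.00168, with the length correction). Values that changed sign were all uncalled. With single libraries left out, the range in KO against WT was -0.46 to 0.01 for NR4A2, -0.04 to 0.17 for GATA6 and -0.03 to 0.43 for GATA6-AS1. In OE against WT it was -0.12 to 0.03 for NR5A1, -0.44 to 0.07 for NR4A2 and -0.29 to 0.06 for NR4A3, and in OE against KO -0.21 to 0.30 for NR4A2. With WT replicate 2 and OE replicate 2 both left out, GATA6 in KO was at -0.04 and NR4A2 in OE against WT at 0.13. NR4A2 in OE against KO was at -0.01 with library totals alone and at -0.04 with the length correction, with or without the replicate block. Deviations of same-numbered libraries correlated between -0.14 and 0.25, and those of differently numbered libraries between -0.28 and 0.22. Deviations from a mean of 3 libraries offset each other, so these values cannot decide whether the numbers pair the libraries. With the replicate block, 1820 genes were called higher and 1937 lower in OE against WT, more than in the main fit. Scaling by library totals alone moved the median of all genes in OE against WT to -0.129, with 765 genes called higher and 2190 lower instead of 1365 and 1559. Depth limited NR4A2, NR2F1 and WT1 most.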

Other observations

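Regulators of the embryonic gonad and adrenal primordium, the tissue in which NR5A1 and WT1 are first switched on, numbered 27, of which 15 were tested. In KO 1 rose and 4 fell (median -0.14), where 9.16% of all genes were called higher and 9.6% lower. SHH, the hedgehog ligand made by the outer adrenal cortex, rose by 1.29 ± 0.20 (adjusted p = 0.000199), from 5.77, 5.63 and 6.44 CPM in WT to 12.9, 14.4 and 16.5 CPM. The patterning factor HOXA9 fell (a log2 fold change of -1.2 ± 0.19, adjusted p = 0.000277), from 14.6, 13.0 and 15.8 CPM to 6.31, 6.16 and 6.42 CPM. SOX4, a factor of progenitor cells, was at -0.86 ± 0.13 (adjusted p = 0.000196) and was called in all 21 alternatives, like SHH and HOXA9. The 4 falls came to 2 without WT replicate 1 or KO replicate 3.

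Under the OE label, 1 of these regulators rose against WT and 3 fell (median -0.11), where 9.65% and 11% of all genes did. GLI2, a transcription factor of the hedgehog pathway, fell by 2.38 on the log2 scale (adjusted p = 0.000416), from 6.56, 4.52 and 6.21 CPM in WT to 1.10, 0.553 and 1.51 CPM, and was at -2.23 with the length correction. The 3 falls came to 1 without WT replicate 1.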
